A study of Mus musculus with 21 samples.

Results

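Smooth muscle contractile genes and elastin were followed in RNA-seq libraries of germ cells from young mouse testes. The 9 genes are Acta2, Actg2, Myh11, Myl9, Mylk, Tagln, Cnn1, Des and Eln. They were picked by symbol from the 37620 genes of the expression table, as muscle genes with wide variation between samples, and the 3 libraries of each sample number were averaged. Because that choice used the same values, the levels and differences of the 9 genes are given as a description, with no test.

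Total RNA came from germ cells that were enriched out of C57BL/6J (B6) testes at 12 dpp (days post-partum) by digesting the tissue with collagenase and trypsin, and the labels call these cells spermatocytes. There are 12 libraries, 3 for each of the sample numbers 186wt, 343wt, 444wt and 456wt, which makes 4 groups. All share strain, age and preparation. The labels give no treatment or genotype that sets one number apart from another, and do not say whether the 3 libraries of a number come from separate animals. The paper's methods speak of as many replicates of germ cells as there are sample numbers, which would make the libraries of a number repeats of one preparation. A comparison between numbers therefore asks how far preparations of the same kind differ, and its p-values measure only the spread between libraries of a number, which may be technical. Levels are in FPKM (fragments per kilobase of transcript, scaled to sequencing depth), a value per transcript length, so that levels of different genes can be set side by side. The estimated depth was 13.01 to 18.1 M (mega) fragments a library. It is inferred from the FPKM values, so it covers fragments that entered them. It is not the sequencing depth in paired-end reads that the paper states.

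Seminiferous tubules are wrapped in a thin layer of peritubular myoid cells, flat smooth muscle-like cells whose contraction moves the tubule contents. Smooth muscle contracts when calcium and calmodulin activate myosin light chain kinase, which phosphorylates the regulatory light chain so that smooth muscle myosin pulls on actin filaments. The same genes are also active in the smooth muscle of blood vessels, and elastin is a matrix protein of the elastic fibres around such cells and no part of the contractile machine. The 9 genes thus mark smooth muscle and its matrix, and do not by themselves separate peritubular from vascular cells. None is a usual marker of germ cells or of Sertoli cells.

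The smooth muscle actins Acta2 and Actg2 are near-identical proteins, and reads are assigned to one or the other through base differences like those shown here. Over 1131 coding bases compared, Acta2 and Actg2 were identical at 948 (83.8%), and the longest identical run was 29 bases. The 60-base coding stretch in which they differ least has 4 differences, printed in capitals. It covers coding bases 928 to 987 of Acta2 and 925 to 984 of Actg2, counted from the start codon in the NCBI build 37 transcripts.
Acta2: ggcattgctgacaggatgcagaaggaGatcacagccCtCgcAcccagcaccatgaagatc
Actg2: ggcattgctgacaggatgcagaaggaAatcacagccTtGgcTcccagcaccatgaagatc
None of the 100-base windows of the 9 genes was found in another protein-coding gene with at most 1 mismatch, so no stretch of read length was shared with a relative at that tolerance.

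Serum response factor controls many smooth muscle genes through a short element, the CArG box, and the promoters are shown for that reason. In the RefSeq table of promoters (GRCm38.p6, 250 bases before to 50 after each gene start) 5 of the 9 genes had an entry, and both strands were searched for the CArG box, the only motif tried. Myl9 held an exact match, and Acta2 and Myl9 held 3 further matches with 1 letter off. Each is shown with its surroundings, the element in capitals, and named by the position of its first base from the gene start.
Acta2 at -84, chr19:34255438-34255467, minus strand, 1 letter off: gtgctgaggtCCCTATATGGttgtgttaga
Acta2 at -34, chr19:34255388-34255417, minus strand, 1 letter off: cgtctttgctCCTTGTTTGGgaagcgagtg
Myl9 at -161, chr2:156775293-156775322, plus strand, exact: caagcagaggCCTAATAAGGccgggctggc
Myl9 at -99, chr2:156775355-156775384, plus strand, 1 letter off: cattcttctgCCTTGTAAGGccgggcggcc
Of all 32851 promoters in the table, 1.63% held an exact match and 21.1% held one with at most 1 letter off. The windows of Mylk, Cnn1 and Des held none, which says only that these letters are not in those 300 bases. Mylk has 3 annotated coding transcripts, of 1466 to 7824 bases, and which of their starts its window covers was not checked. Actg2, Myh11, Tagln and Eln had no entry.

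As a group the 9 genes were highest in 456wt and, apart from Des, lowest in 343wt, with 186wt and 444wt between. Their summed level was 541 to 543 FPKM in the 343wt libraries, 1048 to 1050 in 186wt, 1283 to 1307 in 444wt and 2148 to 2180 in 456wt. The ratio of the 456wt mean to the 343wt mean ran from 2.11 in Mylk to 6.69 in Actg2. In bulk RNA of a cell mixture, fewer cells of a type and less RNA per cell cannot be told apart.

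**Figure D1:**
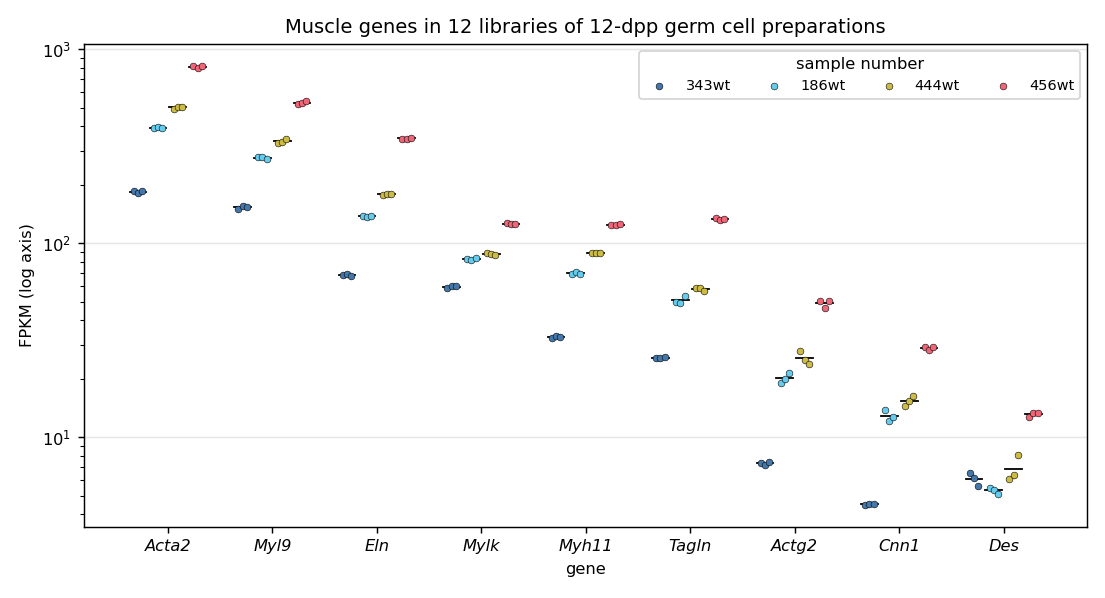
FPKM (log axis) of each of the 9 genes in each library, as points grouped by sample number, with a bar for the mean of the 3 libraries. Libraries of a number lie close together, the 456wt points are the highest in all 9 genes, and only in Des are the 343wt points not the lowest.

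In 8 of the 9 genes all libraries followed one order without overlap, 343wt below 186wt below 444wt below 456wt, against 0.962% of the 20795 genes tested. All 9 had every 456wt library above the other 9 libraries (background 9.18%), and 8 had every 343wt library below the others (background 8.28%). These shares describe the rule by which the genes were taken and support nothing further. All 9 passed the filter of a mean of at least 0.1 FPKM, and none of them needed a high group to pass it.

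Acta2 encodes smooth muscle alpha-actin, the main thin-filament actin of these cells. It lies on the minus strand of chromosome 19, from base 34315580 to base 34329826 of NCBI build 37. Its levels were 187, 181 and 185 FPKM in the 343wt libraries, 392, 397 and 393 in 186wt, 493, 505 and 504 in 444wt, with 819, 803 and 814 in 456wt. No library of one number reached the range of another, and the step from 343wt to 186wt was the widest on the log2 scale (1.09, against 0.35 from 186wt to 444wt and 0.70 from 444wt to 456wt). The mean over the 4 numbers was 473 ± 262 FPKM (SD, n = 4). The 456wt level was 4.41 times that of 343wt, a difference of 2.14 ± 0.014 (SE) on the log2(FPKM + 0.1) scale.

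Actg2, the gamma smooth muscle actin best known from gut and bladder, lies on the minus strand of chromosome 6 (83462899 to 83486259). It was measured at a much lower level, with 7.32, 7.22 and 7.49 FPKM in 343wt, 19.1, 20.04 and 21.3 in 186wt, 27.7, 25.1 and 23.8 in 444wt, with 50.4, 46.6 and 50.4 in 456wt. The numbers kept the order of Acta2, and the gap between the highest 186wt and the lowest 444wt library was small beside the others. Of the 9 genes Actg2 had the highest 456wt to 343wt ratio, 6.69, with a log2 difference of 2.72 ± 0.059 (SE). Its level was 3.98% of that of Acta2 in 343wt and 6.05% in 456wt.

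Myh11, the heavy chain of smooth muscle myosin and the most specific marker of the smooth muscle lineage among the 9, lies on the minus strand of chromosome 16 (14194620 to 14291501). Its levels were 32.3, 33.2 and 32.7 FPKM in 343wt, 69.6, 70.8 and 69.5 in 186wt, 88.8, 89.4 and 89.0 in 444wt, with 123.6, 123.8 and 125.9 in 456wt. Myh11 stood at the same share of Acta2, 17.8%, in 343wt, 186wt and 444wt, and in 456wt the share was 15.3%. The motor thus followed the filament up to 444wt and differed less from 444wt to 456wt, by 0.48 against 0.70 for Acta2 on the log2 scale. Between 343wt and 456wt the log2 difference was 1.92 ± 0.018 (SE).

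Myl9 encodes the regulatory light chain of smooth muscle myosin, the substrate of the kinase, and lies on the plus strand of chromosome 2 (156601156 to 156607394). It was the second most abundant of the 9 after Acta2, with 150.3, 155.6 and 153.6 FPKM in 343wt, 278, 276 and 272 in 186wt, 328, 334 and 342 in 444wt, with 523, 528 and 538 in 456wt. The order was again without overlap, over a narrower range than in Acta2. The 456wt mean was 3.46 times the 343wt mean, with a log2 difference of 1.79 ± 0.019 (SE). Myl9 stood at 83.1% of the Acta2 level in 343wt and at 65.2% to 70.0% in the other numbers.

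Mylk encodes the myosin light chain kinase and lies on the plus strand of chromosome 16 (34745296 to 35002520). Its levels were 58.8, 60.1 and 59.98 FPKM in 343wt, 83.0, 82.1 and 84.3 in 186wt, 88.5, 88.3 and 87.2 in 444wt, with 126.4, 126.2 and 125.8 in 456wt. Its 456wt to 343wt ratio of 2.11 (log2 difference 1.08 ± 0.017, SE) was the lowest of the 9 genes, and its log2 difference between 444wt and 186wt, 0.08, was below the median of all genes tested (0.10). With scaling by the median of ratios that difference was 0.0033 and Mylk was no longer called. The kinase had 32.4% of the Acta2 level in 343wt and 15.52% in 456wt, so that the relative composition of the group differed between the numbers.

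Tagln and Cnn1 encode transgelin (SM22-alpha) and calponin, actin-binding proteins of the thin filament. Tagln (minus strand of chromosome 9, 45737711 to 45744141) had 25.7, 25.6 and 25.8 FPKM in 343wt, 49.5, 49.1 and 53.4 in 186wt, 58.4, 58.9 and 56.9 in 444wt, with 134.8, 131.8 and 133.1 in 456wt. Most of its distance between 186wt and 456wt lay in the last step, where 456wt exceeded 444wt by 1.197 on the log2 scale, the highest value of that step among the 9. Between 343wt and 456wt the log2 difference was 2.37 ± 0.030 (SE), and the mean over the 4 numbers was 66.9 ± 46.3 FPKM (SD, n = 4). Tagln overlaps Pcsk7 on the opposite strand, and since no strand setting is stated its reads could include some of that gene's.

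Cnn1 (plus strand of chromosome 9, 21903725 to 21914074) had 4.48, 4.50 and 4.54 FPKM in 343wt, 13.8, 12.2 and 12.7 in 186wt, 14.46, 15.4 and 16.3 in 444wt, with 29.2, 28.2 and 29.3 in 456wt. Its first step, from 343wt to 186wt, was the highest of the 9 genes (1.49 on the log2 scale), and 186wt and 444wt lay close together. The ratio of 456wt to 343wt was 6.42 (log2 difference 2.66 ± 0.055, SE). Cnn1 and Actg2, both at a few FPKM in 343wt, rest there on an estimated 171 and 153 fragments in the library with the fewest, so their low values carry more counting error than those of Acta2, with at least 5187.

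Des encodes desmin, the intermediate filament protein of muscle, and lies on the plus strand of chromosome 1 (75356904 to 75365154), where it overlaps Gm15179 on the other strand. It was the exception in the group. Its levels were 6.54, 6.13 and 5.63 FPKM in 343wt, 5.50, 5.33 and 5.11 in 186wt, 6.08, 6.36 and 8.07 in 444wt, with 12.8, 13.3 and 13.4 in 456wt. The 343wt and 444wt libraries overlapped, 186wt was the lowest number, and 456wt stood above all, at 2.15 times the 343wt mean (log2 difference 1.10 ± 0.096, SE). Against the mean profile of the other 8 genes over 12 libraries its Pearson r was 0.739, where each of the others had 0.978 to 0.999. These correlations are descriptive, since the libraries of a number are near copies and leave about 4 separate points. Des also had the widest spread within a number, a coefficient of variation of 15.8% in 444wt, and 3.31% of the Acta2 level in 343wt against 1.35% to 1.62% in the other numbers.

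Eln encodes tropoelastin, the soluble unit of elastic fibres, and lies on the minus strand of chromosome 5 (135179651 to 135223111). Its levels were 68.5, 69.2 and 68.0 FPKM in 343wt, 137.5, 137.0 and 137.9 in 186wt, 177, 178 and 180 in 444wt, with 346, 346 and 349 in 456wt. The matrix gene kept the order of the contractile genes and its r with the mean of the other 8 was 0.999. Its 456wt to 343wt ratio of 5.06 (log2 difference 2.34 ± 0.013, SE) lay above that of Acta2, and its share of the Acta2 level was 34.9% to 37.2% in 343wt, 186wt and 444wt and 42.7% in 456wt. The annotation of Eln holds a coding sequence alone, so a level per length is relative to 2583 bases without untranslated regions.

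**Figure D2:**
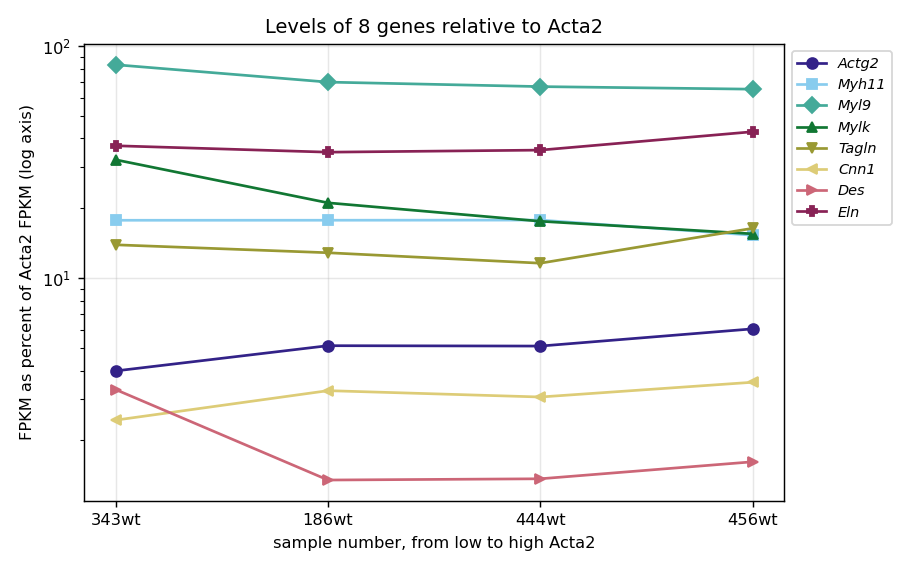
Level of each other member as a percent of the Acta2 level (log axis), by sample number. The lines of Myh11 and Eln are the flattest, while Mylk and Des stand at a higher share in 343wt (32.4% and 3.31%) than in the other 3 numbers.

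Every member was called higher in 456wt than in 343wt, where 27.6% of all genes tested were called higher and 14.2% lower, and higher in 444wt than in 186wt, where 26.1% were higher and 16.3% lower (limma, adjusted p under 0.05). The F-test over all 4 numbers called 58.2% of genes, so a call alone says little at this spread between libraries. Nothing is read from the members' calls, because the choice used those contrasts. Their sizes are given instead. The median member difference was 2.14 between 456wt and 343wt and 0.34 between 444wt and 186wt, where the median over all genes was 0.11 and 0.10. Of all calls, 66.1% were higher in 456wt against 343wt and 61.6% in 444wt against 186wt, and with median-of-ratios scaling these shares were 52.7% and 49.1%.

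**Figure D3:**
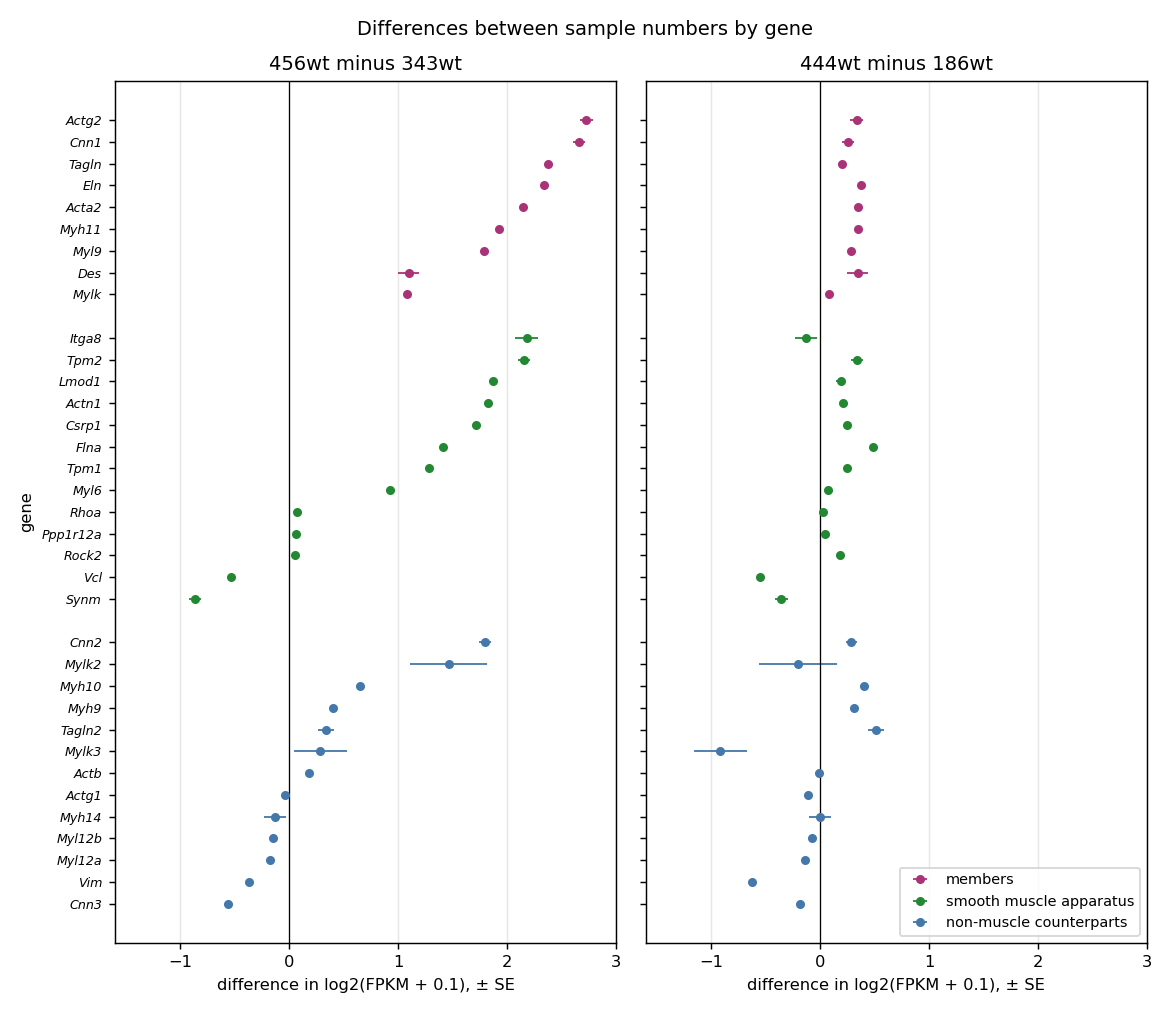
Difference on the log2(FPKM + 0.1) scale (points, with bars for the standard error of the limma fit), 456wt minus 343wt in the left panel and 444wt minus 186wt in the right, for the members, the genes of the smooth muscle apparatus list that the text names and the non-muscle counterparts. For the members the left panel runs from 1.08 in Mylk to 2.72 in Actg2 and the right from 0.08 in Mylk to 0.38 in Eln.

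Most of the members have relatives in the genome that are used outside smooth muscle, mainly non-muscle forms of the same protein and, for the kinase, Mylk2 and Mylk3 of striated muscle. These counterparts did not share one direction. Of 14 such genes 13 were tested, 6 were higher (5 with a filter of 1 FPKM or with median-of-ratios scaling, where Mylk2 was not tested) and 5 lower in 456wt than in 343wt, with a median of 0.18. Beta-actin, Actb, had 916 FPKM in 343wt against 1037 in 456wt (difference 0.18, limma adjusted p = 4.44e-08), and with median-of-ratios scaling the difference was 0.10. Gamma-actin, Actg1, had 783 and 764 FPKM (-0.03, limma adjusted p = 0.0283), a call lost with no filter, with no trend, and without 343wt library 3, 456wt library 1 or 456wt library 2. With median-of-ratios scaling the Actg1 difference was -0.11 (limma adjusted p = 1.14e-05). Acta2 therefore stood at 0.201 times Actb in 343wt and at 0.783 times in 456wt, and against Actg1 it went from 0.235 to 1.06 times.

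The myosins of non-muscle cells, Myh9 and Myh10, were higher in 456wt by 0.40 and 0.65 (limma adjusted p = 4.57e-08 and 5.99e-08), less than Myh11 with 1.92. The ratio of Myh11 to Myh9 was 0.967 in 343wt and 2.79 in 456wt. Myh14 was at 4.46 and 4.07 FPKM and was not called (adjusted p = 0.336). The light chains Myl12a and Myl12b were lower in 456wt by small amounts (-0.17 and -0.15), and Myl9 stood at 0.642 times Myl12a in 343wt and at 2.50 times in 456wt.

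Vim, the intermediate filament vimentin of mesenchymal and Sertoli cells, was lower in 456wt (288 against 371 FPKM, limma adjusted p = 5.16e-07), while Des was higher. Tagln2 was higher by 0.34, and Tagln stood at 1.14 times Tagln2 in 343wt and 4.66 times in 456wt. The calponins split. Cnn3 was lower (73.6 against 108.9 FPKM, adjusted p = 5.24e-10), and Cnn2 was higher (72.2 against 20.8 FPKM, adjusted p = 3.24e-10) and held the full order of the members, so that the ratio of Cnn1 to Cnn2 ran only from 0.217 to 0.401. Of the other kinases, Mylk2 stood near the filter with 0.0067 and 0.193 FPKM, Mylk3 had 0.967 and 1.197 FPKM and was not called, and Tagln3 did not pass the filter.

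Other parts of the contractile apparatus, a list of 25 genes for tropomyosins, caldesmon, adhesion and kinase pathway proteins, mostly went the way of the members. In 456wt 21 were higher than in 343wt and 2 were lower, with a median of 0.95, and in 444wt against 186wt 16 were higher and 4 lower, with a median of 0.20. Of the 25, 12 held the full order of the members without overlap. Tpm2, a tropomyosin that lies along the actin filament, had 32.6 FPKM in 343wt, 66.5 in 186wt, 84.0 in 444wt and 145 in 456wt (2.15, limma adjusted p = 7.64e-11). Its relative Tpm1 went from 85.4 to 208 FPKM (1.28), the filamin gene Flna from 60.8 to 162 FPKM (1.41), the essential light chain Myl6 from 221 to 419 FPKM (0.92), and the integrin Itga8 from 1.32 to 6.33 FPKM (2.18).

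Other genes of that list had small or opposite differences. Rhoa, a small GTPase of the contraction pathway, was higher by only 0.07 (124 against 118 FPKM, limma adjusted p = 0.0102) and turned to -0.0071 with median-of-ratios scaling. Vcl (vinculin, 64.3 against 92.8 FPKM) and Synm (synemin, 5.25 against 9.65 FPKM) were lower in 456wt, and Ppp1r12a and Rock2 were not called (adjusted p = 0.0806 and 0.196). Vcl, Synm, Ppp1r12a and Rock2 are named here because they make up the small counts, and were chosen after their values were seen. The 9 members were not all the most variable of the muscle genes. Of the 25 genes, 11 had a wider range between numbers than Mylk and 5 a wider range than Myl9.

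The regulators of smooth muscle genes showed no common direction. Of 18 table entries for 17 regulators, 9 were higher and 5 lower in 456wt than in 343wt, with a median of 0.06. The count of 9 was 6 with median-of-ratios scaling and 7 with the replicate block or no trend. It was 6 to 9 with 1 library left out. None of the 18 held the members' full order without overlap, though the means of Myocd, Jag1 and Notch3 followed it. Myocd, the coactivator myocardin that works with serum response factor, had 1.05 FPKM in 343wt, 2.56 in 186wt, 2.90 in 444wt and 4.77 in 456wt (2.09, limma adjusted p = 1.51e-06). Srf itself, which encodes serum response factor, had 33.6 to 35.9 FPKM in all 4 numbers (0.09, adjusted p = 0.046). That call was lost under both other scalings, with the replicate block, with no filter, with no trend, and on leaving out any of 9 of the 12 libraries. Notch3 was higher in 456wt by 1.03, Klf4 and Smad3 were lower (-0.24 and -0.66), and Tgfbr1 was higher by 0.10, or by 0.024 with median-of-ratios scaling, no longer called, as also without 343wt library 1 or 456wt library 1.

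Eln was set beside other genes of elastic fibres. Of 17, 12 were higher and 3 lower in 456wt than in 343wt, with a median of 1.02, and 12 were higher and 1 lower in 444wt than in 186wt. The enzyme Lox, which cross-links elastin, had 2.003 FPKM in 343wt against 11.3 in 456wt (2.44, limma adjusted p = 9.56e-09). Ltbp2 was higher by 2.16, Mfap4 by 1.31 (181.9 against 73.5 FPKM), Ltbp4 by 1.14 and Efemp2 by 0.69, while Ltbp1 was not called (28.4 against 26.4 FPKM, adjusted p = 0.178). The 3 lower genes were Efemp1 (-0.60), Fbln2 (-0.31) and Ltbp3 (-0.23), named because they make up that count. The members' full order was held without overlap by 6 of the 17.

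Among 1495 genes whose mean reached 1 FPKM and whose range between numbers reached 1 on the log2 scale, the 10 most like the mean profile of the members had an r of 0.995 to 0.999 over the 12 libraries. They included Actn1, Csrp1, Lmod1, Tcf23, Tnnt2, Col4a4, Tpm2, Cnn2 and Sytl2. Actn1, an actinin that cross-links actin, and Lmod1, a leiomodin that starts actin filaments, come from the apparatus list. Actn1 had 13.3 FPKM in 343wt against 47.1 in 456wt. Tcf23, a basic helix-loop-helix factor, had 3.30 and 10.5 FPKM, and Col4a4, a basement membrane collagen chain, 23.7 and 70.1 FPKM. The order among them is loose, since 30 genes reached 0.99 and the 10 genes closest over the 4 means shared only 2 with these.

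Genes of other cell types moved with the members to different degrees, and their part in the members' levels was not tested. For the peritubular layer itself, 5 further genes were listed, of which 4 were higher in 456wt than in 343wt and in 444wt than in 186wt. Cyp26b1, a retinoic acid-degrading enzyme, had 62.3, 81.6, 105.3 and 134.6 FPKM in 343wt, 186wt, 444wt and 456wt, the order of the members (1.11, limma adjusted p = 2.06e-12). Ptch1 and Gli1, of the hedgehog response, were higher by 0.81 and 0.99. The summed level of the 5 ran from 129.5 to 132.1 FPKM in 343wt, 164.6 to 166.3 in 186wt, 204 to 206 in 444wt and 244 to 249 in 456wt.

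Pericytes and vascular smooth muscle express the members too. All 9 genes of their list were higher in 456wt than in 343wt (median 1.03), whereas 1 was higher (2 without 186wt library 2) and 1 lower in 444wt than in 186wt (median -0.01), where the members' median was 0.34. Mcam alone held the full order without overlap. Its 47.7 to 84.8 FPKM made up most of the summed level, which was 67.3 to 68.7 FPKM in 343wt, 75.1 to 78.1 in 186wt, 82.4 to 85.7 in 444wt and 123.6 to 128.3 in 456wt. Rgs5, a pericyte marker, had 9.20 FPKM in 343wt, 7.02 in 186wt, 4.50 in 444wt and 16.9 in 456wt, and so was lower in 444wt than in 186wt (-0.63, limma adjusted p = 1.70e-06).

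Endothelial genes, 10 in all, were higher in 456wt than in 343wt (median 0.84), and in 444wt against 186wt 1 was higher (0 with median-of-ratios scaling, and 0 without 186wt library 3 or 444wt library 2) and 4 were lower. Their sum was 45.8 to 48.2 FPKM in 343wt, 40.8 to 42.4 in 186wt, 38.2 to 42.5 in 444wt and 78.8 to 81.4 in 456wt. Of 12 fibroblast and stromal genes 11 were higher in 456wt than in 343wt (median 1.011), and only Col6a1 held the full order without overlap. In 444wt against 186wt, 7 of them were higher and 2 lower (median 0.27, where the members' median was 0.34). Col3a1, a fibrillar collagen, had 79.9 FPKM in 343wt, above its 52.7 in 186wt and 61.2 in 444wt, and 266 in 456wt. The 456wt libraries were thus the highest in the vascular and stromal sums as well. The pericyte and vascular smooth muscle sum, most of it Mcam, had the members' full order without overlap. The endothelial and fibroblast sums did not. The median gene level of the pericyte list was 1.72 FPKM in 343wt, 1.91 in 186wt, 1.31 in 444wt and 3.65 in 456wt. That median did not follow the members' order.

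**Figure D4:**
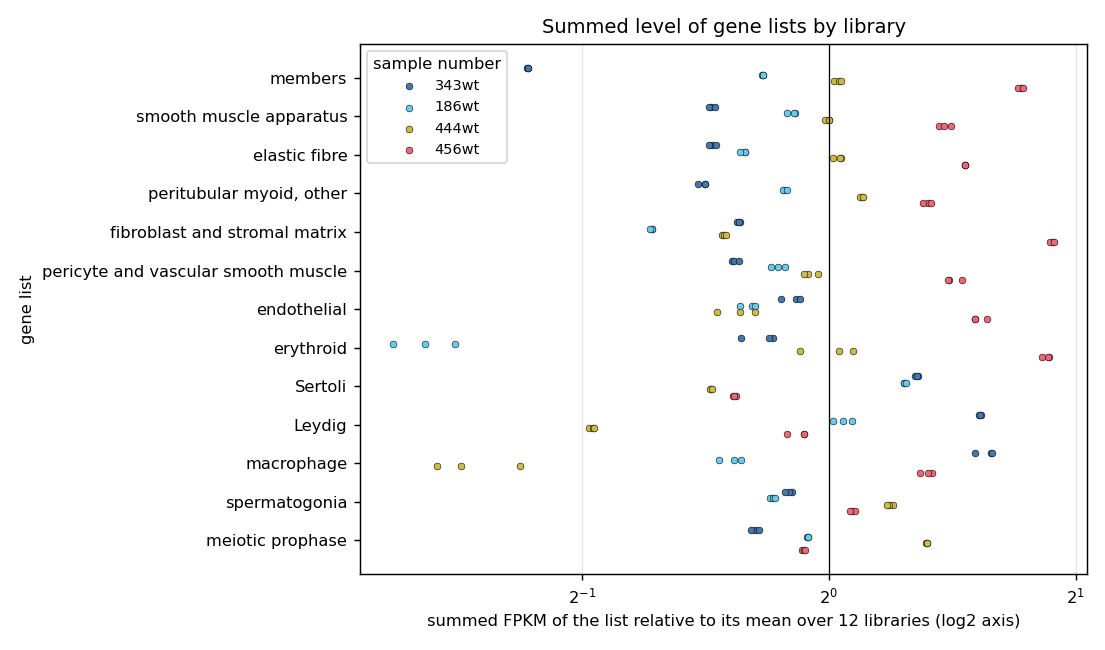
Summed FPKM of the 9 members and of 12 other gene lists in each library, relative to the list's mean over the 12 libraries (log2 axis), with a point for each library coloured by sample number. The member sum climbs from 343wt to 456wt, while the Sertoli and Leydig sums are highest in 343wt.

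Sertoli and Leydig genes, which mark the somatic cells inside and between the tubules, went the other way. All 9 Sertoli genes and all 7 Leydig genes were lower in 456wt than in 343wt (medians -0.71 and -1.10) and lower in 444wt than in 186wt (-0.53 and -1.91). Sertoli sums were 4219 to 4248 FPKM in 343wt, 4083 to 4107 in 186wt, 2372 to 2382 in 444wt and 2526 to 2553 in 456wt. Leydig sums were 171.9 to 172.6 FPKM in 343wt, 113.9 to 120.3 in 186wt, 57.45 to 58.25 in 444wt and 100.2 to 105.1 in 456wt. Both sums were lowest in 444wt, so neither was a mirror image of the members' order. Of 11 macrophage genes none was higher and 4 were lower in 456wt, and 4 of 5 erythroid genes were higher, with a summed level of 73.6 to 80.4 FPKM in 343wt against 171 to 175 in 456wt. Genes of spermatogonia were higher in both contrasts in 8 of 8 cases (medians 0.29 and 0.49). Of 11 meiotic genes 8 were higher in 456wt than in 343wt (5 with median-of-ratios scaling), against 27.6% of all genes tested. The meiotic median in that contrast was 0.16, near the 0.11 over all genes. Between 444wt and 186wt 8 meiotic genes were higher and 1 lower, with a median of 0.48 against 0.10 over all genes. Markers of the labelled cell type were present in every number, with a summed meiotic level between 384 FPKM in the lowest 343wt library and 629 in the highest of 444wt. No gene of these lists was at 0 in all libraries.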

How the data were processed

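For the RNA-seq, Bowtie 0.12.9 placed paired reads of 100 bp on NCBI build 37 transcripts, reads with 2 or more mismatches were removed, and the authors deposited FPKM from RSEM 1.2.8 (fragment length 280 ± 50 bp) rounded to 2 decimals. Tool versions are from the paper and the submitters' processing notes. A strand setting is not given in the sources used here. The other 9 samples (ChIP-seq, Affinity-seq and input) were not analysed here.

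Columns were matched to samples by title. Depth was estimated from the FPKM steps of 52 short genes. Genes whose mean reached 0.1 FPKM were fitted with limma 3.58.1 in R 4.3.3 (lmFit, eBayes with trend) on log2(FPKM + 0.1), with 4 groups of 3 libraries, Benjamini-Hochberg adjustment over 20795 genes and a threshold of 0.05. On this scale the change of low genes is understated. The script was tested on simulated data, in which 200 genes were shifted by 1 on the log2 scale. Of the shifted genes 64.5% were called, and 92.6% of those at a level of 1 FPKM or more. Of all calls 4.44% were false. A low gene that was not called may therefore still differ. Members and lists were chosen with earlier results of these data known. Genes named from a list were all the counterparts, the 4 with the highest mean and the 2 with the largest 456wt minus 343wt difference of each other list, as far as they are described, and the 10 most like the members. A few of these genes are not reported here. Positions are from GENCODE M1 on NCBI build 37, and promoters from RefSeq on GRCm38.p6. Alternatives were the pseudocount, the filter, scaling, a replicate block, no trend, and each library left out. Python 3.11.15, numpy 2.4.6, pandas 2.3.3, scipy 1.17.1 and matplotlib 3.10.9 were used.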

Additional observations from a re-analysis of the deposited data

How the results depend on the processing

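Of 2412 alternative values for 122 results, 2372 were scored as unchanged and 40 were not, of which 5 changed sign. For the difference of a single gene, unchanged means that it kept its direction and its side of the threshold. For the other results, mostly counts of genes, it does not mean an equal value. A count of 6 regulators higher in place of 9 was still scored as unchanged. Median-of-ratios scaling moved the median member difference between 456wt and 343wt from 2.14 to 2.06, left Mylk at 0.0033 between 444wt and 186wt, no longer called, and turned the differences between 456wt and 343wt of Rhoa (-0.0071), Ppp1r12a (-0.018) and Rock2 (-0.025). In the lists, between 456wt and 343wt, that scaling gave 6 regulators higher in place of 9 and 1 fibroblast gene lower in place of 0. It gave 5 meiotic genes higher in place of 8 and 1 lower in place of 0. For 444wt against 186wt it gave 0 endothelial genes higher in place of 1. Without the trend in eBayes 2 endothelial genes were higher in that contrast. Leaving out 1 library at a time, the count of endothelial genes higher in 444wt than in 186wt was 0 to 1 (0 without 186wt library 3 or 444wt library 2), and that of pericyte genes 1 to 2 (2 without 186wt library 2). The differences between 456wt and 343wt of Mylpf (-0.084 to 0.33, lowest without 456wt library 3) and Actc1 (-0.52 to 0.15, highest without 343wt library 1), neither called, changed sign. The median member difference was 2.13 to 2.15.

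Whether library numbers pair the samples was not settled, since only deviations between libraries could be compared. Deviations of same-numbered libraries correlated at -0.065 to 0.128 and those of differently numbered ones at -0.128 to 0.084. Of 12 libraries 5 correlated best with their own number. With the replicate block 11774 genes differed between the numbers, against 12107 without it, and Srf was no longer called between 456wt and 343wt. The list of 10 genes most like the members shared 2 with the list from the 4 means. FPKM without counts leave the counting error of low genes, such as Actg2 and Cnn1 in 343wt, to be estimated.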

Other observations

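Striated muscle genes were mostly near the filter. Of 18, 14 were tested, 4 were higher and 1 lower in 456wt than in 343wt, and Acta1 and Actc1 had means of 0.107 and 0.134 FPKM. Tnnt2, the cardiac troponin T gene, was the exception on the members' side, with 12.4 FPKM in 343wt, 28.1 in 186wt, 36.3 in 444wt and 67.0 FPKM in 456wt (2.42, limma adjusted p = 6.77e-12). Tnni3, the cardiac troponin I gene, had higher levels and the opposite direction, with 221 FPKM in 343wt, 198 in 186wt, 125.5 in 444wt and 110.7 FPKM in 456wt (-0.9997, adjusted p = 2.07e-10). It followed the direction of the Sertoli and Leydig lists, and the cause was not tested. Myh6, an alpha cardiac myosin heavy chain, had 3.90 and 6.97 FPKM in 343wt and 456wt (0.82), Tnni2 0.697 and 1.89 FPKM (1.37), and Mylpf was not called (adjusted p = 0.554).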
